A study of Rattus norvegicus with 12 samples.

Results

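Lung samples of rats given the S1P1 agonist SEW-2871 alone (SEW, 3 arrays) were compared with those of sham rats (3 arrays), on 6 of the 12 arrays of a study of lung injury after brain death. The arrays were chosen by their labels alone, and all 14217 genes to which the array annotation gives a single symbol were tested. All rats were wild type male Sprague Dawley animals weighing 250 to 350 g, and labelled cRNA for each array was made from 6 ug of total lung RNA. SEW rats received SEW-2871 intravenously at 0.1 mg/kg, and sham rats are the study's controls. The remaining 6 arrays hold BD/SEW rats, given the same dose 15 min after brain death, and BD rats, in which a balloon catheter inflated outside the dura caused brain death and no agonist was given, with 3 arrays in each group. The labels do not say whether SEW rats also underwent the sham operation, nor how long after the injection the lungs were taken, so an effect of the agonist and an effect of the operation cannot be told apart here. Nothing in the labels says that each array is a separate animal, so p-values measure the spread between samples, which may be technical. Values are log2 probe set intensities. The tissue label fits the arrays, since Sftpc, which encodes surfactant protein C of alveolar type 2 cells, was at 14.66, 14.67 and 14.6 in SEW arrays and 14.47, 14.5 and 14.32 in sham arrays.

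Sphingosine 1-phosphate is a blood-borne lipid that acts on a family of G protein-coupled receptors. Its receptor S1P1, encoded by S1pr1, is abundant on lung endothelium, where its activation tightens junctions between cells, and on lymphocytes, where it governs their exit from lymphoid organs. Inflamed endothelium displays E-selectin, P-selectin and VCAM-1, to which leukocytes attach, and the genes for these proteins and for many chemokines are classical targets of the transcription factor NF-kappa-B. Laminar blood flow, by contrast, maintains the transcription factors KLF2 and KLF4 in endothelial cells.

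Promoters of 4 genes that fell in SEW lungs are shown because genes of NF-kappa-B signalling fell together here and each of these sequences holds a kappa B motif. They are RefSeq promoters of assembly GRCr8, from 250 bases before to 50 bases after the start of transcription, written 5′ to 3′ on the strand of the gene. Capitals mark matches to 3 motifs searched on both strands: the kappa B motif, the interferon response motif, and the AP-1 motif TGANTCA.
Tnfaip3 (chr1:15543930-15544229, minus strand): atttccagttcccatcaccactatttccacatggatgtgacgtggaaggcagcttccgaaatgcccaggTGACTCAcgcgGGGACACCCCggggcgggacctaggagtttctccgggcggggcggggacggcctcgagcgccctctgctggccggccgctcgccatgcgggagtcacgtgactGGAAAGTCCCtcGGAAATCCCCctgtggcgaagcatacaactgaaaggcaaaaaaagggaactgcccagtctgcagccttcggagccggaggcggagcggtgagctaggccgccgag
Vcam1 (chr2:206742734-206743033, minus strand): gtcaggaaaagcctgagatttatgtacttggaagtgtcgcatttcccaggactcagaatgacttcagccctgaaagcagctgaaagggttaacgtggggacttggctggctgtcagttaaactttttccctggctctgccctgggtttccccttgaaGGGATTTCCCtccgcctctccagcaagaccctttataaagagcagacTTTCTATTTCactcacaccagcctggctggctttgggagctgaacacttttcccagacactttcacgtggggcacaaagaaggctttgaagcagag
Cxcl10 (chr14:15988816-15989115, plus strand): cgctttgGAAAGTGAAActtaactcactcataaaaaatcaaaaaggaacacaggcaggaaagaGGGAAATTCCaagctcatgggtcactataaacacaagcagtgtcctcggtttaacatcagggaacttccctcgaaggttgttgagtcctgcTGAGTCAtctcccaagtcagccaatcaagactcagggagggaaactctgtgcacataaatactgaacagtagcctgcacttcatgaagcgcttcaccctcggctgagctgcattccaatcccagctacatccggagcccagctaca
Cxcl1 (chr14:17479272-17479571, minus strand): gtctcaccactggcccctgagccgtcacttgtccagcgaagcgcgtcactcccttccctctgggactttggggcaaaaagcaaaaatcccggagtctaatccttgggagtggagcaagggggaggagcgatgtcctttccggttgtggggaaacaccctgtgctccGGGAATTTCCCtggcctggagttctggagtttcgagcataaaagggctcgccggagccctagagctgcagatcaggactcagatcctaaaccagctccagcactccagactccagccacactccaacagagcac
Tnfaip3 holds kappa B matches that start 170, 67 and 55 bases before the start site, and an AP-1 match lies 181 bases before it. Vcam1 holds a kappa B match 93 bases before the start site and an interferon response match 46 bases before it. Cxcl10 holds a kappa B match at 187 bases, an interferon response match at 243 bases and an AP-1 match at 96 bases before the start site. In Cxcl1 a pair of overlapping kappa B matches starts 84 and 83 bases before it. The kappa B motif was found in 4.16% of all 27457 promoters in the RefSeq table and in 4.95% of the 11700 that belong to genes tested. Among genes that fell in SEW lungs, 39 of the 273 with a promoter in the table held it, or 14.3%, and among genes that rose it was 16 of 395, or 4.05%. The AP-1 motif was found in 13.6% of promoters of fallen genes, in 3.29% of those of risen genes and in 5.43% of those tested. The interferon response motif was found in 4.76%, 2.28% and 2.99% of these sets in the same order, and the cyclic AMP response motif TGACGTCA in 1.83%, 4.56% and 2.85%. A match describes the letters in this window and does not show that a factor binds there.

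Several arrays stood apart in lists of marker genes. The 29 cardiac muscle markers averaged 6.12, 6.57 and 7.39 in SEW arrays and 10.15, 9.74 and 9.22 in sham arrays, with 11.12 in BD replicate 2 against 6.27 and 7.11 in the other BD arrays. The 24 adipocyte markers averaged 8.25, 8.16 and 8.02 in SEW arrays and 9.69, 9.18 and 8.96 in sham arrays, and BD replicate 2 had 9.34. The 18 airway secretory and gland markers averaged 7.67, 8.38 and 8.58 in SEW arrays and 9.36, 9.27 and 9.34 in sham arrays. All sham arrays were thus richer in transcripts of heart, fat and airway than all SEW arrays, and the part of this in the results below was not tested beyond fits that hold the cardiac or adipocyte mean constant. The 17 heat shock genes averaged 11.9 in SEW replicate 2 and 10.24 to 10.49 in every other array. The 26 interferon genes averaged 9.12, 9.41 and 9.19 in SEW arrays and 9.58, 10.7 and 9.74 in sham arrays, with the highest mean in sham replicate 2. In bulk tissue, fewer cells of a type and less RNA per cell cannot be told apart.

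**Figure D1:**
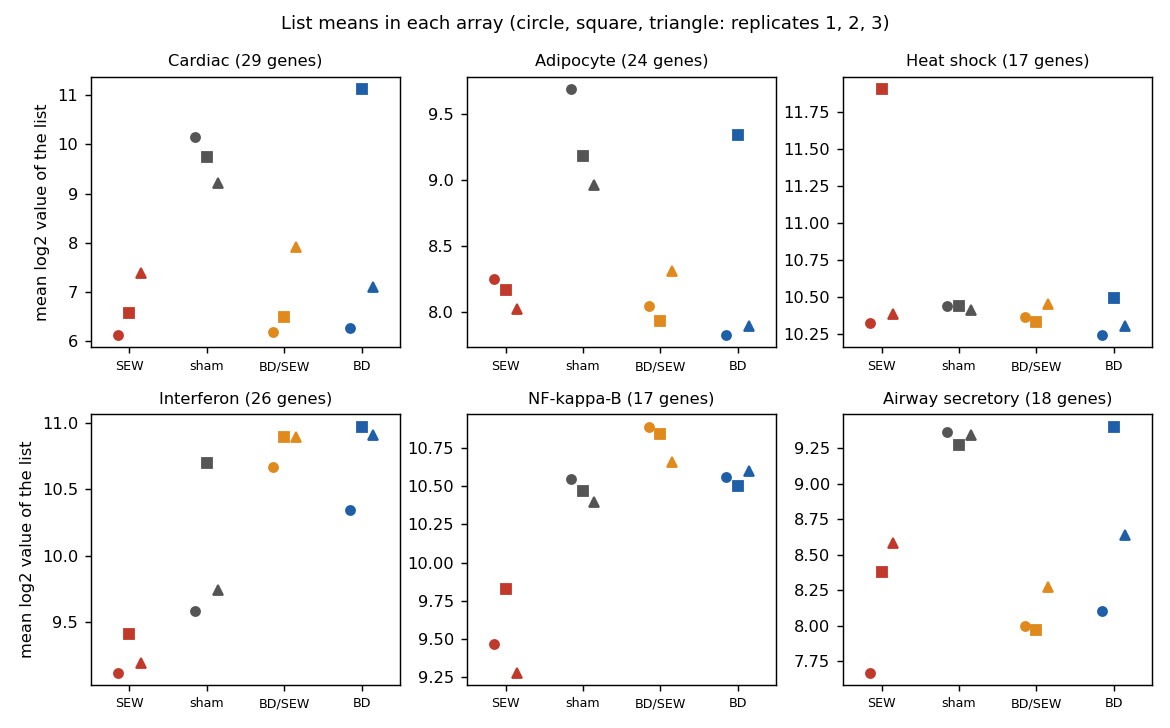
Mean log2 value of 6 gene lists (y axis) in each array of the SEW, sham, BD/SEW and BD groups (x axis), 1 point per array. Cardiac, adipocyte and airway means are higher in all 3 sham arrays than in all 3 SEW arrays and high again in BD replicate 2; the heat shock mean is high in SEW replicate 2 alone, and the NF-kappa-B mean is lower in SEW arrays than in all others.

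SEW lungs had lower levels of many inflammatory genes than sham lungs, among them those of NF-kappa-B signalling, selectins and chemokines, and higher levels of some endothelial genes, among them Klf2, Hey1 and Sox18. Of 14217 genes, 830 were called at an adjusted p under 0.05 in limma (5.84%), of which 484 rose (3.4%) and 346 fell (2.43%). Falls were larger than rises, with a median log2 change of -0.89 among fallen genes and 0.59 among risen genes. A change of at least 2-fold was seen in 143 fallen and 29 risen genes. The median change of all genes was 0.017. When each array was centred on its median, 312 genes rose and 345 fell. Every SEW array lay below every sham array in 10.6% of genes and above in 16.4%. Leaving out each of the 6 compared arrays in turn kept 205 of the calls in all 6 fits (1.44% of genes), 94 of them rises and 111 falls. With the cardiac mean as a covariate 24 of the 830 genes were called (0.169% of genes), all of which fell. With the adipocyte mean as a covariate 16 genes were called, 15 of which fell. When the 6 compared arrays were fitted alone 47 genes rose and 210 fell, and without SEW replicate 2 and sham replicate 2 the numbers were 86 and 177. The number of calls was between 321 (without sham replicate 3) and 1006 (without BD replicate 2) when single arrays of the 12 were left out.

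**Figure D2:**
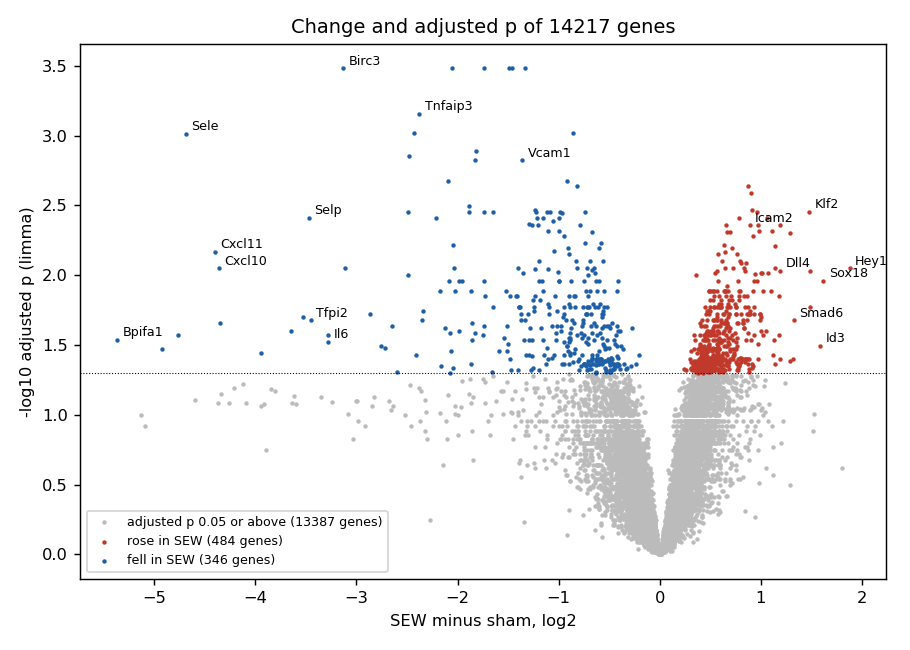
Log2 difference between SEW and sham arrays (x axis) against -log10 of the limma adjusted p (y axis) for 14217 genes, 1 point per gene. Fallen genes reach log2 differences of -5.37, while risen genes reach 1.88.

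Transcripts of NF-kappa-B subunits and of the proteins that restrain it had the largest share of calls of any list, 52.9%. The cardiac markers had a lower median change, -3.353. The lists were written with earlier results of these data known, so this share is not a separate test. Of 17 measured subunits and feedback inhibitors, 9 fell and 0 rose, against 2.43% of all genes that fell, and the median change of the list was -0.63 against 0.017 for all genes. Of these 9 calls, 8 held in all 6 fits that each left out a compared array, 5 were also made with the cardiac covariate, and 3, those of Birc3, Tnfaip3 and Relb, with the adipocyte covariate. Birc3, which encodes the ubiquitin ligase cIAP2 of TNF receptor signalling, was at 8.13, 9.19 and 7.92 in SEW arrays and 11.57, 11.35 and 11.71 in sham arrays. Its log2 change was -3.13 ± 0.26 (SE), an 8.75-fold fall with an adjusted p of 0.00033. SEW replicate 2 was the highest of the SEW arrays and still lay far below all sham arrays. Tnfaip3, which encodes the ubiquitin-editing inhibitor A20 and whose promoter is shown above, was at 9.92, 10.76 and 9.72 in SEW arrays and 12.73, 12.28 and 12.52 in sham arrays, a change of -2.38 ± 0.23 (adjusted p 0.0007). Relb, a subunit of the noncanonical pathway, was at 8.04, 8.16 and 7.57 in SEW arrays and 9.74, 9.62 and 9.64 in sham arrays, a change of -1.74 ± 0.15 (adjusted p 0.00033). The groups did not overlap for any of these genes.

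Among the other subunits, Nfkb1, which encodes p105 and p50, changed by -0.86 ± 0.09 (adjusted p 0.00096) and Nfkb2, which encodes p100 and p52, by -1.29 ± 0.18 (adjusted p 0.0043). Bcl3, a nuclear inhibitor-like protein that binds p50 and p52, changed by -1.74 ± 0.22 (adjusted p 0.0035). Nfkbiz, another nuclear member of that family, changed by -1.74 ± 0.3 (adjusted p 0.011), but its other probe set moved the other way. Tnip1, a partner of A20, changed by -1.23 ± 0.2 (adjusted p 0.0091), and Nfkbib, which encodes the inhibitor I-kappa-B-beta, by -0.63 ± 0.17, at the limit of the threshold and in none of the fits with an array left out. The subunit gene Rela was not called, with a change of -0.28 ± 0.11 (adjusted p 0.13). Nfkbia, which encodes I-kappa-B-alpha, was at 13.34, 13.27 and 13.07 in SEW arrays and 13.43, 13.35 and 13.18 in sham arrays, a change of -0.09 with a 95% interval of -0.3 to 0.11. The fall therefore covered subunits Nfkb1, Nfkb2 and Relb and several inhibitors, while Rela and Nfkbia did not pass the test.

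Endothelial adhesion genes split in direction. Of 13 measured, Sele, Selp and Vcam1 fell and Icam2 and Jam2 rose, or 38.5% called against 5.84% of all genes. Sele, which encodes E-selectin, was at 4.31, 6.16 and 4.63 in SEW arrays and 9.46, 9.75 and 9.97 in sham arrays, a change of -4.69 ± 0.48 (25.9-fold, adjusted p 0.00097). Its SEW mean lay in the lowest 25% of array values. Selp, which encodes P-selectin, was at 7.87, 9.56 and 7.34 in SEW arrays and 11.44, 12.12 and 11.61 in sham arrays, a change of -3.47 ± 0.47 (11.1-fold, adjusted p 0.0039). Vcam1, which encodes the ligand of leukocyte integrin alpha-4 beta-1, was at 10.97, 10.83 and 11.2 in SEW arrays and 12.39, 12.16 and 12.52 in sham arrays, a change of -1.36 ± 0.15 (adjusted p 0.0015). The groups did not overlap for these 3 genes, and all 3 calls held with the cardiac covariate and without any single compared array. With the adipocyte covariate Sele was called (-5.21, adjusted p 0.023), while Selp (-3.85, adjusted p 0.058) and Vcam1 (-1.37, adjusted p 0.052) were not.

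Icam2, an adhesion molecule of resting endothelium, was at 12.22, 11.74 and 12.05 in SEW arrays and 11.26, 11.12 and 10.95 in sham arrays, a rise of 0.89 ± 0.12 (adjusted p 0.0044). It was called in all 6 fits with an array left out, though not with the cardiac covariate (change 0.8, adjusted p 0.11). Jam2, a junctional adhesion molecule, rose by 0.47 ± 0.1 (adjusted p 0.029), and 3 of those 6 fits called it. Icam1, the inducible partner of leukocyte beta-2 integrins, was at 12.07, 11.38 and 11.86 in SEW arrays and 12.53, 12.62 and 12.08 in sham arrays. It did not pass, with a change of -0.64 and a 95% interval of -1.03 to -0.25 (adjusted p 0.058). Pecam1, which encodes the pan-endothelial protein CD31, differed by 0.08 with an interval of -0.13 to 0.29. The selectins and Vcam1 thus fell while Pecam1 did not pass the test.

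**Figure D3:**
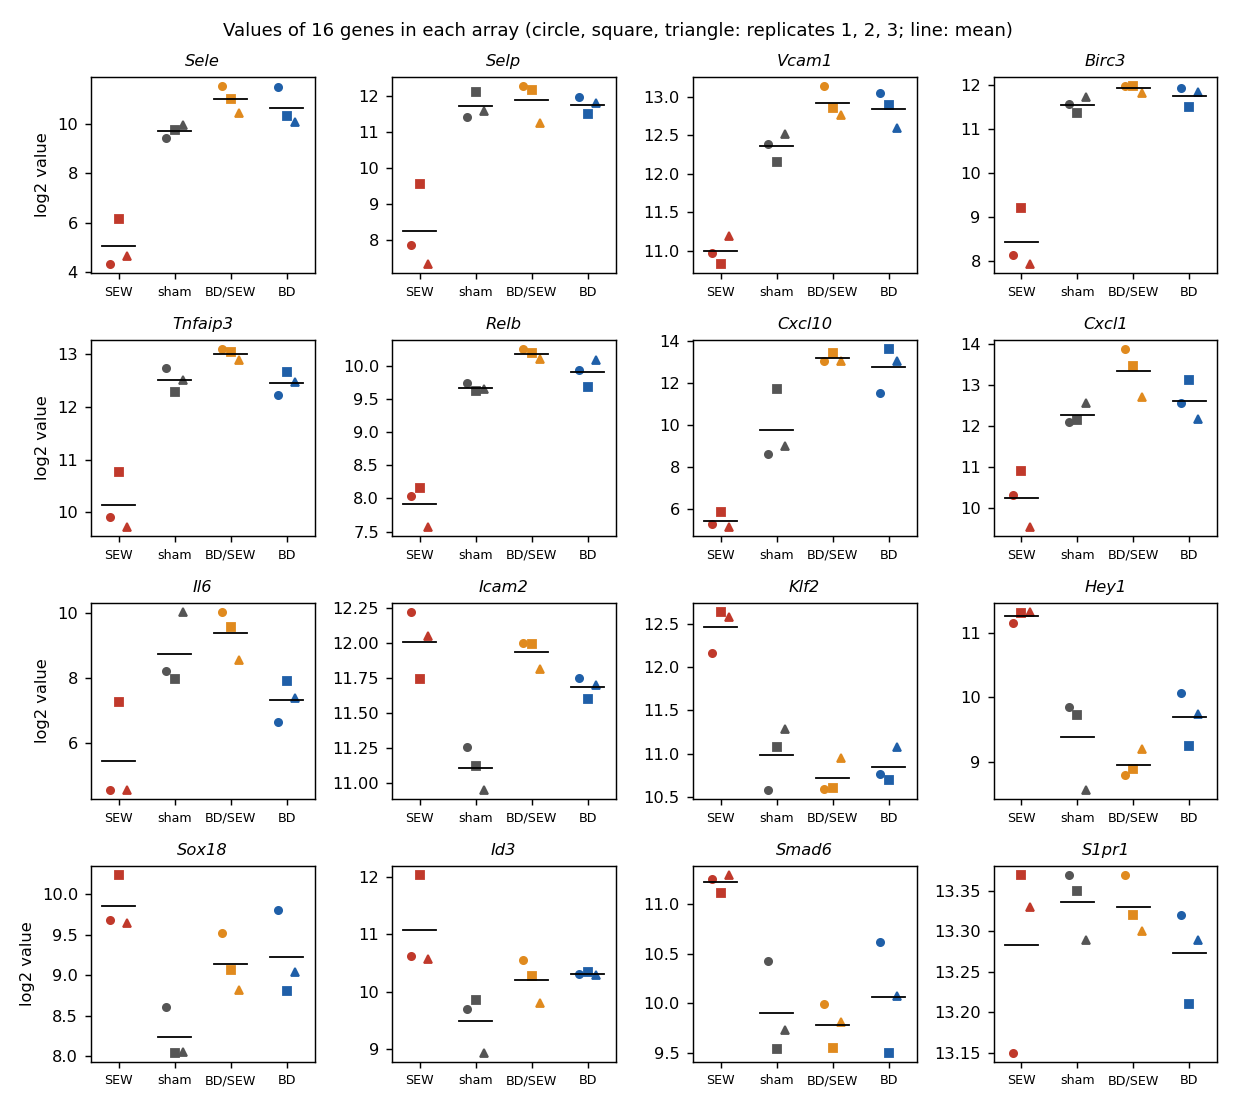
Log2 values of 16 genes (y axes, separate scales) in each array of the SEW, sham, BD/SEW and BD groups (x axis), with the group mean as a line. Inflammatory genes such as Sele, Birc3 and Relb are low in the SEW group alone, Klf2 and Hey1 are high there alone, and S1pr1 overlaps in all 4 groups.

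Several genes for chemokines that attract neutrophils and T cells fell. Of 15 CXC chemokines and receptors, 4 fell and 1 rose (median -0.257), and of 22 CC chemokines and receptors 4 fell and 0 rose (median -0.228), while of all genes 2.43% fell and 3.4% rose. Cxcl10, a ligand of the T cell receptor CXCR3 that interferon and NF-kappa-B induce, was at 5.27, 5.88 and 5.14 in SEW arrays and 8.64, 11.71 and 9.01 in sham arrays, a change of -4.36 ± 0.7 (20.5-fold, adjusted p 0.0089). Cxcl11, a second ligand of that receptor, was at 5.16, 5.44 and 5.01 in SEW arrays and 8.73, 10.3 and 9.79 in sham arrays, a change of -4.4 ± 0.67 (adjusted p 0.0068). Both SEW means lay in the lowest 25% of array values, and sham replicate 2 was the highest sham array for both. Cxcl1, a neutrophil attractant, was at 10.3, 10.89 and 9.53 in SEW arrays and 12.1, 12.13 and 12.55 in sham arrays, a change of -2.02 ± 0.36 (adjusted p 0.013). Cxcl2, a related attractant, was at 7.96, 10.12 and 6.71 in SEW arrays and 11.07, 10.64 and 11.24 in sham arrays, a change of -2.72 ± 0.63 (adjusted p 0.033). Cxcl10, Cxcl11 and Cxcl1 were called in all 6 fits with an array left out and Cxcl2 in 1 of them, and none was called with the cardiac covariate. With that covariate the changes were -3.59 for both Cxcl10 and Cxcl11, -2 for Cxcl1 and -2.91 for Cxcl2. Cxcl3 is given as risen by 0.74 ± 0.17 (adjusted p 0.036), but only 2 of its 5 probe sets moved that way, and it was called in 1 of those 6 fits.

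Among CC chemokines, Ccl20, which attracts CCR6-bearing lymphocytes, was at 6.35, 7.52 and 7.38 in SEW arrays and 10.61, 10.49 and 10.73 in sham arrays, a change of -3.53 ± 0.71 (adjusted p 0.02). BD replicate 2, the array rich in cardiac transcripts, had 10.44 for Ccl20, against 6.8 and 7.52 in the other BD arrays. Its receptor Ccr6 also fell, by 1.39 ± 0.27 on the log2 scale (adjusted p 0.017). Ccl7, a monocyte attractant, changed by -2.07 ± 0.55 at the limit of the threshold, and Ccrl2, an atypical receptor that binds chemerin, by -1.25 ± 0.23 (adjusted p 0.015). Ccrl2 was the only one of these 4 called in all 6 fits with an array left out. Ccl2, the main monocyte attractant, was at 5.49, 7.27 and 5.47 in SEW arrays and 7.32, 8.32 and 10.01 in sham arrays and did not pass (adjusted p 0.061).

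Cytokine signalling genes also fell in part. Of 14 genes of the interleukin-6 family with its receptors and SOCS proteins, 3 fell and 0 rose, against 2.43% of all genes that fell. Il6 was at 4.57, 7.28 and 4.57 in SEW arrays and 8.23, 7.99 and 10.04 in sham arrays, a change of -3.28 ± 0.74 (adjusted p 0.03). SEW replicate 2 stood close to the lower sham arrays, and the call held in 2 of the 6 fits with an array left out. The SEW mean of Il6 lay in the lowest 25% of array values, as did those of the called genes Ccl7, Tfpi2, Ptges, Adipoq, Plin1, Clca1 and Ttk. Stat3, the transcription factor downstream of interleukin-6, was at 12.1, 12.42 and 12.13 in SEW arrays and 12.83, 13.04 and 13.15 in sham arrays, a change of -0.79 ± 0.11 (adjusted p 0.0044). Cish, a STAT-induced inhibitor, changed by -1.04 ± 0.19 (adjusted p 0.014), and both calls held in all 6 fits. Ebi3, which encodes a shared subunit of interleukin-27 and interleukin-35, was at 7.52, 9.5 and 6.89 in SEW arrays and 11.06, 11.51 and 10.67 in sham arrays, a change of -3.11 ± 0.5 (adjusted p 0.0089).

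In the interleukin-1 family 3 of 16 genes fell and 1 rose, and in the TNF superfamily 4 of 17 fell and 1 rose, while of all genes 2.43% fell and 3.4% rose. Irak3, a kinase-dead brake on receptor signalling, was at 8.04, 8.82 and 8.22 in SEW arrays and 10.29, 10.14 and 9.61 in sham arrays, a change of -1.65 ± 0.21 (adjusted p 0.0035). The receptor Il1r1 fell by 0.62 ± 0.11 on the log2 scale (adjusted p 0.013), though 1 of its 3 probe sets moved the other way, and the adaptor Myd88 fell by 0.49 ± 0.12 (adjusted p 0.041). Il33, an alarmin that lung epithelial and stromal cells store, rose by 0.59 ± 0.13 (adjusted p 0.026). Il1b was at 9.47, 12.23 and 9.82 in SEW arrays and 11.97, 11.78 and 11.46 in sham arrays and did not pass (adjusted p 0.17), and SEW replicate 2 was above all sham arrays. In the TNF superfamily, Tnfaip2, a TNF-induced endothelial protein, changed by -1.74 ± 0.36 (adjusted p 0.023) and Cd40, a costimulatory receptor, by -1.11 ± 0.14 (adjusted p 0.0035). Tnfrsf9, which encodes the costimulatory receptor 4-1BB, changed by -0.9 ± 0.23 (adjusted p 0.043), while the gene of the apoptosis-inducing ligand TRAIL, Tnfsf10, rose by 0.73 ± 0.18 (adjusted p 0.04). Tnf itself changed by -1.25 ± 0.34 and did not pass (adjusted p 0.053).

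Interferon-stimulated genes had the lowest list median after heart markers, at -0.705, and 5 of 26 fell and 0 rose, against 2.43% of all genes that fell. Rsad2, which encodes the antiviral protein viperin, was at 8.53, 8.83 and 8.83 in SEW arrays and 9.57, 13.07 and 11.82 in sham arrays, a change of -2.76 ± 0.63 (adjusted p 0.032). Dhx58, a RIG-I-like receptor, changed by -1.54 ± 0.34 (adjusted p 0.028) and Ifit2, an interferon-induced RNA-binding protein, by -1.37 ± 0.28 (adjusted p 0.021). Stat2, a subunit of the interferon-activated factor ISGF3, changed by -0.9 ± 0.2 (adjusted p 0.028). Sham replicate 2 was the highest sham array for each of these 4 genes. None of the 5 calls held in all 6 fits with an array left out, and without SEW replicate 2 and sham replicate 2 the list median was -0.35. Irf1, which interferon and NF-kappa-B induce, was the fifth, with a change of -0.73 ± 0.17 (adjusted p 0.03). MHC class I processing genes had 0 calls among 13 (median 0.167). MHC class II genes had 1 among 12 (8.33%, against 5.84% of all genes), the dendritic cell activation marker Cd83 (-0.9 ± 0.2, adjusted p 0.03).

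The 24 genes that fell with and without the cardiac covariate held the adhesion and NF-kappa-B genes Sele, Selp, Vcam1, Birc3, Tnfaip3, Bcl3, Relb and Nfkb1. In the fit with the covariate, the slope of each gene on the mean of the cardiac markers is estimated within the 4 groups. That slope is then applied to the difference between groups. BD replicate 2 departs most from its group in that mean. It held the lowest BD value for 15 of the 24 genes (62.5%), against 38% of all genes. It held the highest for 12.5% of them, against 26.9% of all genes. The part of this array in the selection of the 24 was not tested. A lost call does not always mean a smaller change. Afap1l1 changed by 1.49 without and 1.48 with the covariate (limma adjusted p 0.0093 and 0.14), while Adipoq changed by -3.65 and -1.44 (limma adjusted p 0.025 and 0.22). Csf3, which encodes the granulocyte growth factor G-CSF, was at 6.44, 6.08 and 5.8 in SEW arrays and 8.04, 8.45 and 9.3 in sham arrays, a change of -2.49 ± 0.32 (adjusted p 0.0035). Zc3h12a, which encodes the ribonuclease regnase-1 that degrades inflammatory transcripts, was at 7.37, 7.84 and 6.62 in SEW arrays and 9.98, 9.51 and 9.79 in sham arrays, a change of -2.48 ± 0.27 (adjusted p 0.0014). Tnfrsf11a, which encodes the receptor RANK, changed by -2.09 ± 0.24 (adjusted p 0.0021). Rnf125, a ubiquitin ligase that limits RIG-I signalling, was at 9.14, 9.89 and 9.04 in SEW arrays and 11.5, 11.38 and 11.34 in sham arrays, a change of -2.05 ± 0.18 (adjusted p 0.00033). Sbno2, a transcriptional coregulator that interleukin-10 and STAT3 induce, changed by -1.89 ± 0.23 (adjusted p 0.0032). Cd40 and the glucose transporter gene Slc2a3 were also among the 24.

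The rest of the 24 were of more varied function. Gas7, which encodes an actin-binding protein, was at 8.27, 8.36 and 8.17 in SEW arrays and 9.86, 9.67 and 9.74 in sham arrays, a change of -1.49 ± 0.12 (adjusted p 0.00033). Lmnb1, which encodes the nuclear lamina protein lamin B1, was at 9.39, 9.29 and 9.46 in SEW arrays and 10.87, 10.86 and 10.79 in sham arrays, a change of -1.46 ± 0.11 (adjusted p 0.00033). The spread within either group was small against the gap for both genes. Olah, a thioesterase of fatty acid synthesis, changed by -1.33 ± 0.12 (adjusted p 0.00033), and Cks2, a cyclin-dependent kinase subunit, by -1.82 ± 0.19 (adjusted p 0.0013). Prss22, a serine protease of airway epithelium, was at 6.44, 6.56 and 6.27 in SEW arrays and 8.85, 8.36 and 9.35 in sham arrays, a change of -2.43 ± 0.25 (adjusted p 0.00096). The remaining 4 were Rab32, Uaca, Tesk2 and Znrf1, with changes of -1 to -0.92.

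Flow-responsive endothelial genes included some that rose. Among 19 flow-responsive endothelial genes, 3 rose and 0 fell, against 3.4% of all genes that rose. Klf2, the flow-induced factor that keeps endothelium quiescent, was at 12.17, 12.64 and 12.58 in SEW arrays and 10.58, 11.08 and 11.29 in sham arrays, a rise of 1.48 ± 0.19 (2.79-fold, adjusted p 0.0035). It was called in all 6 fits with an array left out, 4 of its 5 probe sets moved the same way, and with the cardiac covariate its rise was 1.44 with an adjusted p of 0.081. Klf4, its close relative, was at 12.03, 11.87 and 11.89 in SEW arrays and 11.3, 11.15 and 11.46 in sham arrays, a rise of 0.63 ± 0.16 (adjusted p 0.048). Nherf2, a scaffold protein that binds receptor tails, rose by 0.7 ± 0.16 (adjusted p 0.035). Klf4 was called in none of those 6 fits and Nherf2 in 2. Nos3, which encodes endothelial nitric oxide synthase, changed by 0.5 ± 0.22 and did not pass (adjusted p 0.18).

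Of 25 endothelial identity and junction genes, 4 rose and 0 fell, against 3.4% of all genes that rose, with a list median of 0.33. Markers of other lung cells were also higher in most members, 15 of 16 alveolar type 2 markers (median 0.303) and 14 of 15 alveolar type 1 markers (median 0.27), with 0 calls, and the part of cell composition in these rises was not tested. Sox18, a transcription factor of endothelial specification, was at 9.68, 10.24 and 9.64 in SEW arrays and 8.61, 8.04 and 8.05 in sham arrays, a rise of 1.62 ± 0.28 (adjusted p 0.011). Egfl7, a protein secreted by endothelium, was at 11.58, 11.87 and 11.35 in SEW arrays and 10.71, 10.49 and 10.99 in sham arrays, a rise of 0.87 ± 0.17 (adjusted p 0.017). Cldn5, which encodes the tight junction protein claudin-5, was at 13.69, 13.56 and 13.55 in SEW arrays and 13.09, 12.73 and 13.24 in sham arrays, a rise of 0.58 ± 0.13 (adjusted p 0.032). Ramp2, a partner of the adrenomedullin receptor, rose by 0.53 ± 0.13 (adjusted p 0.038). The groups did not overlap for these 4 genes, and only Sox18 was called in all 6 fits with an array left out. The endothelial genes Pecam1, Kdr and Tie1 changed by 0.08, 0.01 and -0.01 and did not pass. None of these rises was called with the cardiac covariate, where the list median was 0.196 and the changes were 1.15 for Sox18, 0.65 for Egfl7, 0.44 for Cldn5 and 0.55 for Ramp2.

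Notch genes were represented by 2 rises and 0 falls among 16, against 3.4% of all genes that rose, with a median of 0.217. Hey1, a Notch target in arterial endothelium, was at 11.15, 11.3 and 11.32 in SEW arrays and 9.85, 9.72 and 8.56 in sham arrays, a rise of 1.88 ± 0.3 (3.68-fold, adjusted p 0.0089). Dll4, the endothelial Notch ligand, was at 9.85, 10.14 and 9.7 in SEW arrays and 8.65, 8.57 and 8.91 in sham arrays, a rise of 1.19 ± 0.19 (adjusted p 0.0093). Both were called in all 6 fits with an array left out. Of 23 BMP, ID and TGF-beta genes, 3 rose and 1 fell, while of all genes 3.4% rose and 2.43% fell. Id3, a BMP-induced inhibitor of differentiation factors, was at 10.62, 12.04 and 10.57 in SEW arrays and 9.69, 9.85 and 8.93 in sham arrays, a rise of 1.59 ± 0.36 (adjusted p 0.032). Smad6, an inhibitory SMAD, was at 11.26, 11.12 and 11.3 in SEW arrays and 10.43, 9.54 and 9.73 in sham arrays, a rise of 1.33 ± 0.27 (adjusted p 0.021). Smad9, a signal-transducing SMAD of the BMP pathway, rose by 1 ± 0.21 (adjusted p 0.025). Inhba, which encodes the subunit of activin A, fell by 1.3 ± 0.26 on the log2 scale (adjusted p 0.019). None of these 4 was called in all 6 fits with an array left out, and none with the cardiac covariate, where the changes were 1.52 for Id3, 0.88 for Smad6, 0.87 for Smad9 and -1.69 for Inhba.

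Other large rises were of genes outside the lists. Afap1l1, an actin-associated adaptor, was at 10.52, 11.15 and 10.56 in SEW arrays and 9.67, 9.38 and 8.7 in sham arrays, a rise of 1.49 ± 0.24 (adjusted p 0.0093). G0s2, an inhibitor of adipose triglyceride lipase, rose by 1.49 ± 0.29 (adjusted p 0.017), and Top1mt, the mitochondrial type of topoisomerase I, by 1.29 ± 0.19 (adjusted p 0.005). Tm6sf1, a membrane protein gene, rose by 1.19 ± 0.17 (adjusted p 0.0044). Nif3l1 was at 7.7, 9.28 and 8.02 in SEW arrays and 7.11, 7.34 and 6.68 in sham arrays, and Echdc3 rose by 1.32 ± 0.32 (adjusted p 0.04). Of the 484 genes that rose, 51.7% had their lowest BD value in BD replicate 2, against 38% of all genes. Of the 346 genes that fell, 43.1% had their highest BD value in that array, against 26.9% of all genes.

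The receptor that SEW-2871 binds did not change detectably. S1pr1 was at 13.15, 13.37 and 13.33 in SEW arrays and 13.37, 13.35 and 13.29 in sham arrays, a difference of -0.05 with a 95% interval of -0.21 to 0.1, and its other probe set differed in the opposite direction. Of 18 measured genes for receptors, transport and metabolism of sphingosine 1-phosphate, 1 was called (5.56%, against 5.84% of all genes). This was Spns2, which encodes the transporter that releases the lipid from endothelial cells, at 10.14, 10.48 and 9.8 in SEW arrays and 9.07, 8.76 and 9.04 in sham arrays. It rose by 1.18 ± 0.21 (2.27-fold, adjusted p 0.014) and was called in all 6 fits with an array left out, but not with the cardiac covariate (0.85, adjusted p 0.23) or without SEW replicate 2 and sham replicate 2 (adjusted p 0.081). The transporter gene Mfsd2a differed by -0.31 (interval -0.64 to 0.03), and the listed gene Mfsd2b was not measured.

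Among the other receptors, S1pr3, found on endothelium and smooth muscle, was at 10.94, 10.79 and 10.96 in SEW arrays and 11.27, 11.63 and 11.21 in sham arrays. The groups did not overlap, and its difference of -0.47 (interval -0.77 to -0.18) had an adjusted p of 0.062. S1pr2 differed by -0.09 (interval -0.43 to 0.24), with its other probe set in the opposite direction, and S1pr5 by 0.46 (interval 0.07 to 0.84, adjusted p 0.13). For the enzymes that make the lipid, Sphk1 was at 9.9, 7.8 and 8.9 in SEW arrays and 9.33, 9.37 and 9.77 in sham arrays (difference -0.62, interval -1.52 to 0.27), and Sphk2 differed by 0.03 (interval -0.23 to 0.29). The lyase gene Sgpl1, which breaks it down, differed by 0.46 (interval -0.22 to 1.14). The lipid phosphatase genes Plpp1, Plpp2 and Plpp3 differed by -0.32, 0.15 and 0.07, and the carrier gene Apom by -0.21. Of the ceramidases, Asah1, Asah2, Acer2 and Acer3 differed by 0.19, -0.48, 0.32 and -0.4, and the ceramide synthase Cers2 by 0.68. Apart from Spns2, none of the 18 genes passed, with adjusted p-values of 0.062 to 0.9.

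A few leukocyte marker genes fell, 1 or 2 in each list, while 2.43% of all genes fell, and none of these markers was called as risen. The shares that fell were 5.26% of 19 T lymphocyte, 7.14% of 14 B lymphocyte, 6.67% of 15 cytotoxic lymphocyte and NK, and 5.26% of 19 monocyte and macrophage markers, 1 gene in each list, and 5.84% of all genes were called in either direction. They were 16.7% of 12 neutrophil, 20% of 10 dendritic cell, and 12.5% of 16 mast cell and basophil markers, 2 genes in each list. In the cytotoxic lymphocyte and NK list 9 of 15 members were higher in SEW arrays (median 0.047). In the monocyte and macrophage list it was 10 of 19 (median 0.04). The medians were -0.133 for T lymphocyte, -0.26 for B lymphocyte, -0.107 for dendritic cell, and -0.108 for mast cell and basophil markers. Among T lymphocyte markers the call was the costimulatory receptor Icos, at 7.64, 7.13 and 7.49 in SEW arrays and 8.05, 8.18 and 8.3 in sham arrays (-0.76 ± 0.15, adjusted p 0.017). Cd3e, part of the T cell receptor complex, differed by -0.5 with an interval of -0.96 to -0.05 and did not pass (adjusted p 0.16). The B lymphocyte coactivator Pou2af1 fell by 1.05 ± 0.25 on the log2 scale (adjusted p 0.037), and the granzyme gene Gzmb fell by 1.87 ± 0.47 (adjusted p 0.043). The neutrophil list had a median change of -0.393. Camp, which encodes the granule peptide cathelicidin, was at 6.81, 8.64 and 6.72 in SEW arrays and 9.82, 9.32 and 10.06 in sham arrays (-2.34 ± 0.46, adjusted p 0.018). Mmp9, which encodes gelatinase B, was at 6.96, 9.1 and 7.46 in SEW arrays and 10.42, 9.46 and 10 in sham arrays (-2.12 ± 0.45, adjusted p 0.024). The neutrophil calprotectin gene S100a8 was at 11.69, 13.41 and 12.24 in SEW arrays and 13.42, 13.34 and 13.36 in sham arrays and did not pass (adjusted p 0.098). SEW replicate 2 was the highest SEW array for these 3 neutrophil genes, and without it and sham replicate 2 the list had 4 falls, Camp, Mmp9, S100a8 and S100a9, and a median of -0.735. In the other leukocyte lists the calls were the scavenger receptor Cd163 of macrophages, Clec10a and Cd83 of dendritic cells, and Hdc and Mcpt8 of mast cells and basophils, all of which fell. Of all these leukocyte calls only 1, in the mast cell and basophil list, held in all 6 fits with an array left out. None of 12 platelet or 7 red cell markers was called.

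In the epithelium, 0 of 16 alveolar type 2 and 0 of 15 alveolar type 1 markers were called, with list medians of 0.303 and 0.27. In the airway list 4 of 18 genes fell, or 22.2%, against 2.43% of all genes. Bpifa1, a secreted protein of upper airway epithelium and the gene with the largest fall of all, was at 6.72, 10.03 and 9.03 in SEW arrays and 14.29, 14 and 13.6 in sham arrays (-5.37 ± 1.2, adjusted p 0.029). Its level was 14.11 in BD replicate 2, against 8.41 and 10.39 in the other BD arrays, and the call held in 1 of the 6 fits with an array left out. The mucin gene Muc5b changed by -2.16 ± 0.55 (adjusted p 0.045) and Bpifb1, a relative of Bpifa1, by -2.6 ± 0.69 (adjusted p 0.049). Clca1, a product of mucous cells, and Car3, a carbonic anhydrase of muscle and fat, changed by -4.92 ± 1.15 and -4.77 ± 1.05. Both were likewise high in BD replicate 2, at 11.18 and 11.93, against 5.22 to 7.07 in the other BD arrays.

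Of 29 cardiac markers every SEW array lay below every sham array for 28 genes, against 10.6% of all genes. With the 6 compared arrays fitted alone 22 of the 29 fell, against 210 of all 14217 genes. In the fit of all 12 arrays, whose spread includes that of BD replicate 2, 1 marker was called. This was the troponin gene Tnnc1, at 6.06, 7.22 and 8.1 in SEW arrays and 11.16, 11.14 and 10.9 in sham arrays (-3.94 ± 0.93, adjusted p 0.036), with 12 in BD replicate 2. The atrial myosin gene Myh6 was at 5.49, 7.19 and 10.21 in SEW arrays and 13.44, 12.75 and 12.08 in sham arrays, a change of -5.13 ± 1.79 that did not pass (adjusted p 0.1). Of 24 adipocyte markers 7 fell and 1 rose, or 33.3% called, against 5.84% of all genes. Adipoq, which encodes the fat hormone adiponectin, was at 4.96, 5.28 and 5.25 in SEW arrays and 9.34, 8.04 and 9.07 in sham arrays (-3.65 ± 0.78, adjusted p 0.025), with 8.91 in BD replicate 2. Thrsp, a lipogenic protein gene, and the lipid droplet genes Plin1 and Cidec changed by -4.35, -3.28 and -2.87. None of the cardiac or adipocyte calls held in all 6 fits with an array left out. None was made with the cardiac covariate, but this covariate is the mean of the cardiac markers themselves, so for them that fit is no test. The adipocyte means were high in the same arrays, so for them it is no separate check.

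Coagulation, vascular tone and stress genes gave isolated calls. Tfpi2, an inhibitor of serine proteases in clotting, was at 4.83, 6.1 and 5.34 in SEW arrays and 7.85, 8.61 and 10.17 in sham arrays, a change of -3.45 ± 0.7 (adjusted p 0.021). Agt, which encodes angiotensinogen, was at 7.41, 7.07 and 7.27 in SEW arrays and 9.63, 8.73 and 9.01 in sham arrays, a change of -1.87 ± 0.33 (adjusted p 0.013). Agt was at 8.71 in BD replicate 2, against 7.35 and 7.4 in the other BD arrays. Ptges, the inducible prostaglandin E synthase, changed by -1.99 ± 0.34 (adjusted p 0.011), and Gch1, which makes the cofactor of nitric oxide synthases, by -1.33 ± 0.27 (adjusted p 0.021). Lta4h, an enzyme of leukotriene B4 synthesis, rose by 0.48 ± 0.12 (adjusted p 0.042). Sod2, the NF-kappa-B-induced mitochondrial superoxide dismutase, was at 10.65, 12.59 and 10.41 in SEW arrays and 12.92, 13.2 and 12.51 in sham arrays (-1.66 ± 0.44, adjusted p 0.049). Here the groups overlapped, because SEW replicate 2 lay above sham replicate 3.

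Among transcription factors of acute activation, Batf, an AP-1 factor of leukocytes, was at 6.91, 8.54 and 6.54 in SEW arrays and 10.16, 9.63 and 9.66 in sham arrays (-2.49 ± 0.42, adjusted p 0.01). Fosl2, another AP-1 factor, changed by -0.92 ± 0.21 (adjusted p 0.032). These were the 2 calls among 13 AP-1 genes, or 15.4%, against 5.84% of all genes. Of 21 immediate early genes 19% fell, against 2.43% of all genes. They were Egr1, Nr4a3, Gadd45a and Zfp36, which fell by 1.27, 1.1, 0.86 and 0.65 on the log2 scale. Zfp36, which encodes the mRNA-destabilising protein tristetraprolin, was the only one called in all 6 fits with an array left out. Tsc22d3, which encodes the glucocorticoid-induced protein GILZ, rose by 0.58 ± 0.14 (adjusted p 0.039), while the glucocorticoid and stress genes Mt2A and Cebpb fell by 1.17 and 0.6. Rgs16, a brake on G protein signalling, changed by -1.37 ± 0.27 (adjusted p 0.019), and the phosphatase gene Dusp4 rose by 0.38 ± 0.1 (adjusted p 0.049).

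Metabolic and growth genes fell in a few members. Slc2a3, which encodes the glucose transporter GLUT3, was at 8.33, 8.47 and 8.12 in SEW arrays and 10.54, 9.71 and 10.15 in sham arrays (-1.83 ± 0.2, adjusted p 0.0015). Hk1, the first enzyme of glycolysis, was at 10.35, 9.88 and 9.89 in SEW arrays and 11.06, 11.49 and 11.27 in sham arrays (-1.23 ± 0.15, adjusted p 0.0034). These were the 2 calls among 22 hypoxia and glycolysis genes, or 9.09%, against 5.84% of all genes called. The cystine and amino acid transporter genes Slc7a11 and Slc7a5 changed by -1.26 ± 0.18 (adjusted p 0.0044) and -0.71 ± 0.14 (adjusted p 0.017). Of 27 replication and mitosis genes 4 fell and 0 rose, or 14.8% called, against 2.43% of all genes that fell. Every SEW array lay below every sham array for 14 of the 27, against 10.6% of all genes, and the list median was -0.323. Mki67, the proliferation marker Ki-67, was at 6.1, 5.8 and 6.24 in SEW arrays and 7.63, 7.15 and 7.81 in sham arrays (-1.48 ± 0.27, adjusted p 0.014). Top2a, Mcm4 and Ttk, which act in chromosome separation, replication licensing and the spindle checkpoint, changed by -1.11, -0.82 and -0.67. Of 17 heat shock genes none was called, and the list median of 0.433 was -0.045 without SEW replicate 2 and sham replicate 2. Hspa1a, the inducible HSP70, was at 9.83, 14.1 and 9.65 in SEW arrays and 9.4, 9.47 and 9.31 in sham arrays. Single falls were called in further lists, of Ripk1 among pathogen sensing genes (-0.52 ± 0.1, adjusted p 0.017), Mmp12 among matrix genes beside Mmp9 (-0.63 ± 0.17, adjusted p 0.049) and the mesothelial gene Msln (-1.5 ± 0.34, adjusted p 0.031), while the keratin gene Krt19 rose by 0.55 ± 0.09 (adjusted p 0.0096). There were also 0 calls among ribosomal protein, respiratory chain, proteasome, cholesterol, clock, complement, catecholamine response, VEGF and angiopoietin, ciliated cell, and fibroblast and smooth muscle genes. Yet all SEW arrays lay above all sham arrays for 7 of 11 ribosomal protein and 11 of 19 proteasome genes. Their list medians were 0.17 and 0.18, and the share among all genes was 16.4%.

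**Figure D4:**
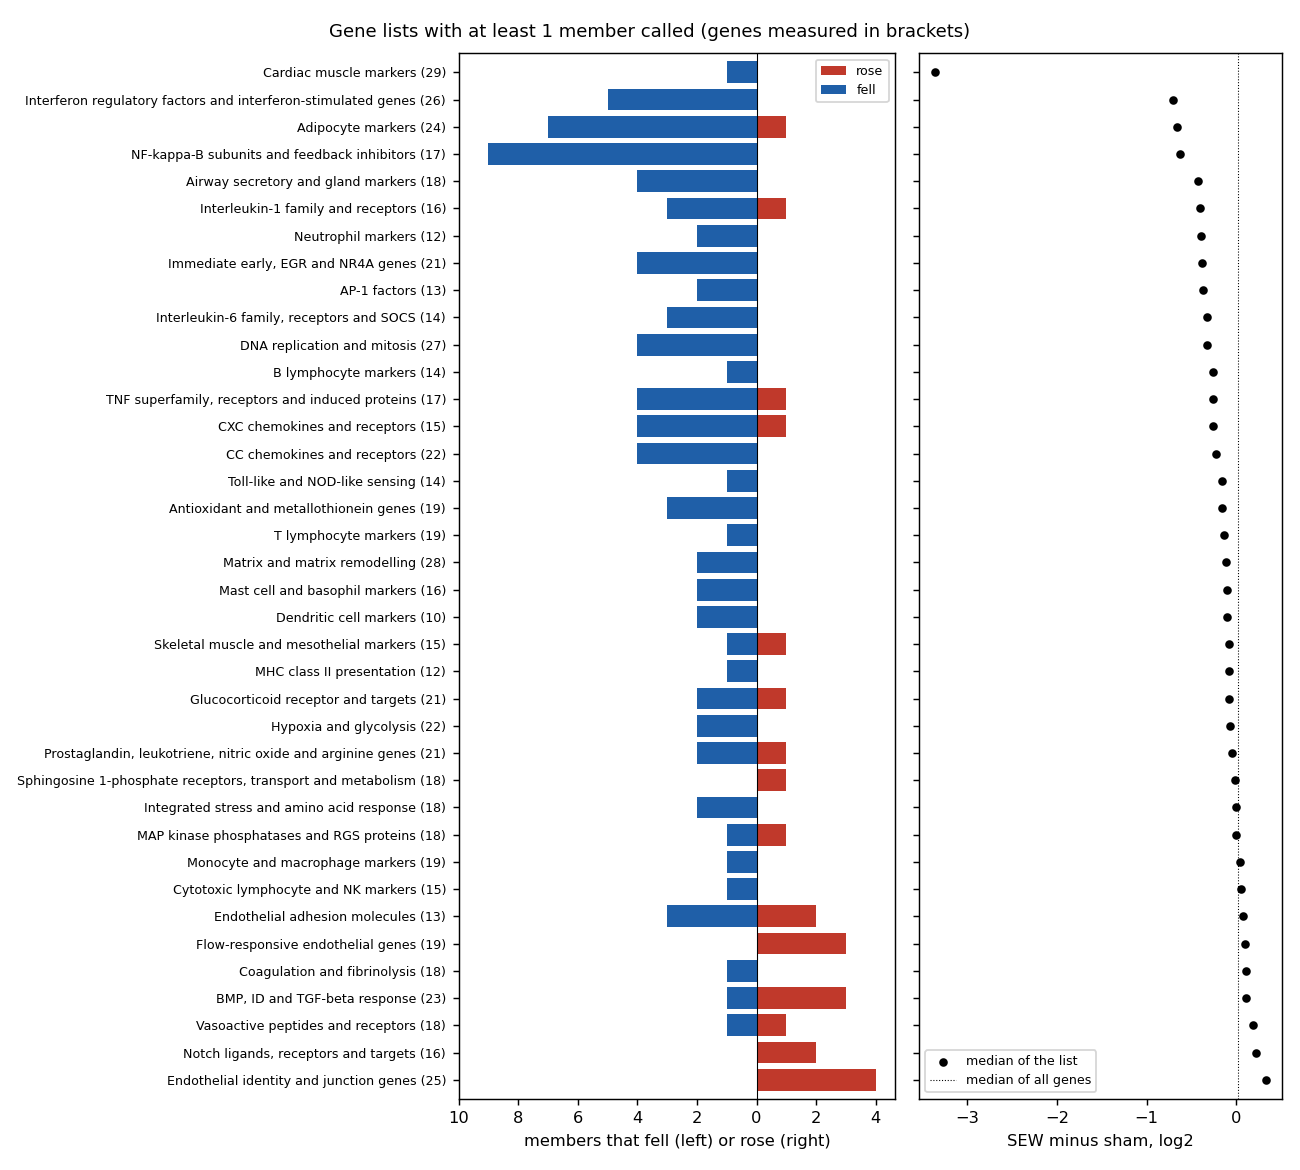
Left, the number of genes in each list that fell or rose in SEW against sham arrays (x axis) for the lists with at least 1 call, with the number measured in brackets. Right, the median log2 change of the same lists (x axis), where the dotted line is the median of all genes; NF-kappa-B genes have 9 falls, and endothelial identity genes 4 rises.

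For a small share of genes, many of them among those described above, SEW and sham lungs differed otherwise than BD/SEW and BD lungs. As the labels do not say whether SEW rats had the sham operation, agonist and operation cannot be told apart in this difference either. The difference between the effect without brain death (SEW minus sham) and the effect with it (BD/SEW minus BD) was called for 135 of 14217 genes (0.95%), 121 of them negative (0.851%) and 14 positive (0.0985%). All 121 were lower in SEW than in sham arrays on average, and 107 were also among the genes that fell. All 14 were among the genes that rose. SEW minus sham is itself a part of the difference tested, so this overlap is largely built in. For Sele the values were 11.56, 11.04 and 10.45 in BD/SEW arrays and 11.52, 10.35 and 10.09 in BD arrays, a difference of 0.36, against -4.69 without brain death (difference of effects -5.06, adjusted p 0.0077). For Birc3 they were 11.97, 11.97 and 11.81 in BD/SEW arrays and 11.92, 11.49 and 11.83 in BD arrays, a difference of 0.17 (difference of effects -3.3, adjusted p 0.0032). For Il6 they were 10.04, 9.57 and 8.57 in BD/SEW arrays and 6.66, 7.91 and 7.41 in BD arrays, a difference of 2.07 (difference of effects -5.35, adjusted p 0.039). The SEW group had the lowest mean of the 4 groups for each of these genes.

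Among the NF-kappa-B list 8 of 17 members had a called, negative difference of effects, and among adhesion genes it was Sele, Selp and Vcam1. Gas7 and Lmnb1 had the differences with the smallest adjusted p of the 24 genes above, -1.94 and -1.84 (adjusted p 0.00071 for both). Mcpt8, a basophil protease gene, was at 7.34, 7.47 and 7.26 in BD/SEW arrays and 5.58, 5.77 and 5.54 in BD arrays, while it was at 5.4, 5.19 and 5.1 in SEW arrays and 5.99, 5.96 and 5.75 in sham arrays. Its difference of effects was -2.4 (adjusted p 6.9e-05), and its SEW values lay in the lowest 25% of array values. On the positive side, Hey1 was at 8.79, 8.88 and 9.19 in BD/SEW arrays and 10.07, 9.24 and 9.74 in BD arrays, a difference of -0.73, against 1.88 without brain death (difference of effects 2.61, adjusted p 0.018). Klf2 was at 10.59, 10.6 and 10.95 in BD/SEW arrays and 10.76, 10.7 and 11.08 in BD arrays, with a difference of effects of 1.61 (adjusted p 0.021). Hoxa5 and Hoxb6, homeobox genes of lung patterning and the posterior body axis, had differences of effects of 1.31 and 1.15. The positive side was less firm than the negative. With the cardiac covariate 2 differences were positive and 80 negative. Without BD/SEW replicate 1, BD/SEW replicate 2 or BD replicate 1, 0 were positive and 44, 38 and 48 negative. At an adjusted p under 0.01 in limma, 0 were positive and 24 negative. Icam2, Spns2, Dll4 and Sox18 rose without brain death, but their differences of effects did not pass, with adjusted p-values of 0.14, 0.078, 0.086 and 0.078.

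**Figure D5:**
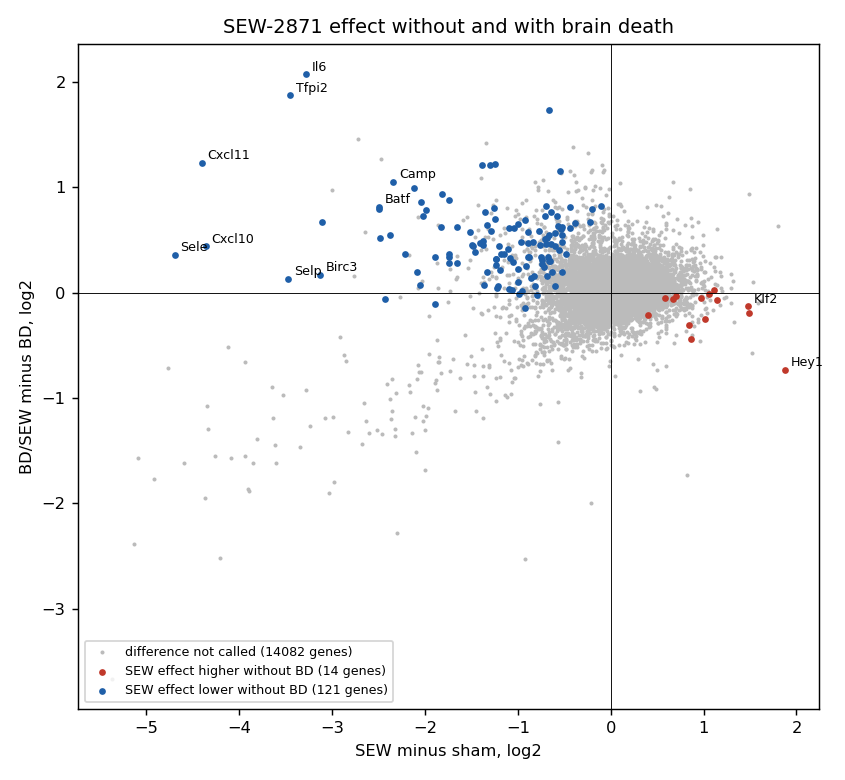
Log2 difference between SEW and sham arrays (x axis) against that between BD/SEW and BD arrays (y axis) for 14217 genes, 1 point per gene, with genes coloured where the 2 effects differ (limma adjusted p under 0.05). Of the 121 genes with a negative difference of effects all lie left of 0 on the x axis, and none of the 135 coloured genes falls below -0.73 on the y axis. The x axis value is itself a part of the difference of effects.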

How the data were processed

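Lung RNA of 12 rat samples was measured on Affymetrix arrays, 3 in each of 4 groups that were taken from the sample labels. The deposited values are log2 intensities of 31042 probe sets, and the submitters' processing notes name RMA, MAS5 and the R package affy without their roles. The number of arrays limits the precision. The arrays differed by at most 0.22 at any rank, so no further normalization was applied. The platform annotation gave 20826 probe sets a single symbol, and 20758 matched RefSeq genes of GRCr8. The probe set with the highest mean stood for each of 14217 genes. limma 3.58.1 in R 4.3.3 fitted the 4 group means over 12 arrays with an intensity trend, p-values were two-sided and adjusted over all genes by Benjamini-Hochberg, and genes under 0.05 were called. The difference of effects was SEW minus sham, less BD/SEW minus BD. Alternatives were left-out arrays, covariates, array weights, a replicate block, centring and thresholds. Named genes were the called genes that rose most and fell most, up to 12 of each (groups not overlapping, higher mean above the 25th percentile), up to 4 called members of each list, the sphingosine 1-phosphate list, genes also called with the cardiac covariate, and up to 10 differences of effects each way; other genes named were chosen after their values were seen. Members and lists were chosen with earlier results of these data known. The fit was tested on simulated data with known changes.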

Additional observations from a re-analysis of the deposited data

Results flagged for a closer look

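The log2 change of SEW against sham lungs differed from that of BD/SEW against BD lungs, by the test of the difference in limma (adjusted p under 0.05), for 135 genes. Of the genes chosen for naming, 62 were among them, not all of which are described above. Their differences of the changes on the log2 scale are given in brackets. It was negative for 52 genes. The most negative values were those of Cxcl11 (-5.64), Il6 (-5.35), Tfpi2 (-5.32), Sele (-5.06), Cxcl10 (-4.79), Ebi3 (-3.78), Selp (-3.6), Camp (-3.4), Birc3 (-3.3), Batf (-3.29), Csf3 (-3.28), Mmp9 (-3.11) and Zc3h12a (-3.0). They were followed by Tnfaip3 (-2.93), Ptges (-2.77), Cks2 (-2.75), Cxcl1 (-2.75), Tnfaip2 (-2.62), Inhba (-2.52), Slc2a3 (-2.45), Mcpt8 (-2.4), Prss22 (-2.37), Tnfrsf11a (-2.28), Sbno2 (-2.23), Rnf125 (-2.12) and Bcl3 (-2.08). Smaller negative values were found for Slc7a11 (-2.06), Relb (-2.02), Gch1 (-1.97), Ccrl2 (-1.95), Gas7 (-1.94), Irak3 (-1.93), Mki67 (-1.92), Rgs16 (-1.86), Lmnb1 (-1.84), Cish (-1.65), Fosl2 (-1.61), Hdc (-1.55) and Hk1 (-1.55). The negative values closest to 0 were those of Olah (-1.52), Cd40 (-1.52), Tesk2 (-1.45), Vcam1 (-1.43), Slc7a5 (-1.22), Rab32 (-1.22), Uaca (-1.1), Cebpb (-1.04), Nfkb1 (-1.01), Zfp36 (-0.95), Stat3 (-0.77), Znrf1 (-0.77) and Ripk1 (-0.71). It was positive for 10 genes, Hey1 (2.61), Afap1l1 (1.68), Klf2 (1.61), Hoxa5 (1.31), Palmd (1.27), Hspa12b (1.21), Hoxb6 (1.15), Klf10 (1.09), Zbtb8a (1.06) and Sh2d3c (1.02). The number of such genes depended on single arrays, being 38 (0 positive) without BD/SEW replicate 2 and 235 (21 positive) without SEW replicate 2. No explanation of these differences was tested.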

How the results depend on the processing

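The number of genes called between SEW and sham lungs, 830, was 257 (47 rises) with the 6 compared arrays alone, 263 (86 rises) without SEW replicate 2 and sham replicate 2, 449 without sham replicate 3 and SEW replicate 2, 24 with the cardiac covariate, 16 with the adipocyte covariate, 1556 with array weights, 109 at an adjusted p under 0.01 and 512 with a change of at least 1.5-fold. With 1 array left out it ranged from 321 (without sham replicate 3) to 1006 (without BD replicate 2), and leaving out SEW replicates 1 and 2 gave 547 and 502, sham replicates 1 and 2 gave 426 and 401, and BD/SEW replicates 1, 2 and 3 gave 491, 459 and 551. The 135 differences of effects became 288 without sham replicate 3 and SEW replicate 2, 82 with the cardiac covariate, 52 with the adipocyte covariate, 464 with array weights, 82 when every probe set was tested and 24 at an adjusted p under 0.01. With 1 array left out they ranged from 38 (without BD/SEW replicate 2) to 235 (without SEW replicate 2), and leaving out SEW replicates 1 and 3 gave 79 and 72, sham replicate 2 gave 69, BD/SEW replicate 1 gave 44 and BD replicate 1 gave 48. Apart from thresholds and left-out arrays, the cause of these shifts was not tested. Of the 124 genes called and chosen for naming, 24 were called with the cardiac covariate, 14 with the adipocyte covariate, 75 with the compared arrays alone and 120 with array weights. Whether the replicate numbers pair the samples could not be settled. Deviations of same-numbered arrays correlated at 0.009, 0.199 and 0.183, and 4 of 6 arrays correlated best with their own number. With the replicate number as a block 1018 genes were called, and 146 differences of effects. With 3 arrays in a group, small changes and genes of low signal are the least certain.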
